A study of Mus musculus with 8 samples.

Results

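The expression of 10 receptor genes of myeloid cells is described here: the Fc receptor genes Fcgr1, Fcgr2b, Fcgr3, Fcgr4 and Fcer1g, and the C-type lectin genes Clec4d, Clec4e, Clec4n, Clec7a and Clec5a. They were chosen by symbol from the 18251 genes of the deposited count table, and all 10 were among the 13436 genes that had enough counts to be tested. Clec4d was chosen partly because of its values in these tumours, so its values are given as a description, without a test. RNA was sequenced in bulk from subcutaneous tumours of MC38, a colon cancer line of the mouse, grown in 7-week-old male C57 mice. The cells of both groups carried TetOn-CXCL14, a construct that makes the chemokine CXCL14 when doxycycline (DOX) is present. The 4 control tumours are labelled Untreat, and the 4 DOX tumours came from mice that drank 1 mg/mL DOX for 3 days. The comparison was set up to ask what CXCL14 does to the tumour microenvironment. No DOX-treated tumour without the construct was analysed here, so effects of DOX and of CXCL14 cannot be told apart, and the labels do not say whether the MC38 line is 1 clone.

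Fc receptors bind the constant part of antibodies and so let phagocytes act on targets that antibody has coated. In mice, Fcgr1, Fcgr3 and Fcgr4 encode activating receptors for IgG that need the adaptor chain encoded by Fcer1g, while Fcgr2b encodes the inhibitory IgG receptor. The Fcer1g adaptor carries an activation motif (ITAM) that recruits the kinase Syk. C-type lectins of myeloid cells use much of the same signalling to read sugars and lipids of microbes and of dying cells. Clec4d (MCL), Clec4e (Mincle) and Clec4n (Dectin-2) signal through the Fcer1g chain, Clec7a (Dectin-1), a receptor for beta-glucan, carries its own Syk-binding motif, and Clec5a (MDL-1) uses the adaptor DAP12, encoded by Tyrobp. Macrophages, monocytes, neutrophils and dendritic cells are the usual carriers of these genes in tumours.

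Each tumour had between 18685975 and 19307481 counts. Cxcl14 stood at 9.34, 9.69, 8.30 and 9.59 CPM (counts scaled to the size of each library) in control tumours 1 to 4 and at 30.1, 30.2, 20.3 and 15.8 CPM in DOX tumours 1 to 4, with no overlap. Every DOX tumour was above every control tumour for 3.23% of all tested genes. On the first principal component of all tested genes, which held 39.6% of the variance, DOX tumour 1 lay at -10.5, between the control tumours (-27.3 to -9.35) and far from DOX tumours 2, 3 and 4 (14.9 to 43.1). DOX tumour 1, and also control tumour 1 and DOX tumour 4, are named beside the results that rest on them. Of 8 epithelial markers, 6 were in the table and 2 were tested, of which Cdh1 lay at 4.77 to 19.8 CPM and Lgals4 at 1.10 to 2.28 CPM. The other 4, Epcam, Krt8, Krt18 and Vil1, reached at most 0.366, 0.983, 0.107 and 0.214 CPM, so most epithelial markers of the labelled colon cancer cells were near 0 and 2 were detected in all 8 tumours. Of the 13436 genes, 1 was higher and 0 were lower in DOX tumours at an adjusted p under 0.05 in edgeR's quasi-likelihood test with Benjamini-Hochberg adjustment (0.00744% and 0%). That 1 gene was Adgrg1, named here after its values were seen. At an unadjusted p under 0.05 the same test gave 1028 genes higher (7.65%) and 531 lower (3.95%), and DESeq2 gave 62 higher and 20 lower after adjustment.

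The mean of all 10 genes was higher in the DOX tumours, by a log2 fold change (DOX minus control, also called log2 difference here) of 0.39 for Fcgr2b to 2.68 for Clec4d. With Clec4d set aside, since it was chosen partly for its change, the other 9 reached at most 2.31 (Clec4e). Their median was 0.60, the value of Fcgr4. Without DOX tumour 4 it was 0.37, the value of Clec5a. Over all 13436 genes the median was -0.01, and 46.8% of genes were higher. None of the 9 tested members passed the adjusted threshold in edgeR's quasi-likelihood test, and DESeq2 called 1 of them, Clec4n. The members and the gene lists used below were chosen with earlier results of these data known. Their counts beside the share of all genes are therefore descriptions. At an unadjusted p under 0.05, 3 of the 9 (Fcer1g, Clec4e and Clec4n) were higher, against 7.65% of all genes. That count was 8 of 9 without DOX tumour 1 (10.2% of all genes then), 7 without control tumour 1 (7.55%), 1 without DOX tumour 4 (4.28%), 1 without control tumour 2 (6.71%) and also 1 with control tumour 3 left out (6.2%). The control and DOX values overlapped for all 10 genes, while 3.23% of all genes had every DOX tumour above every control tumour and 2.43% the reverse. DOX tumour 1 had the lowest value of the 4 DOX tumours for 10 of 10 genes, and at least 1 control tumour was higher. DOX tumour 4 had the highest value of all 8 tumours for 10 of 10 genes, and control tumour 1 was the highest control tumour for 6 of 10. The share of all genes with these orders was not computed, so they cannot be called particular to the members. DOX tumour 4 also lay furthest out on the first principal component of all tested genes, at 43.1. In bulk RNA, fewer cells of a type and less RNA per cell cannot be told apart.

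**Figure D1:**
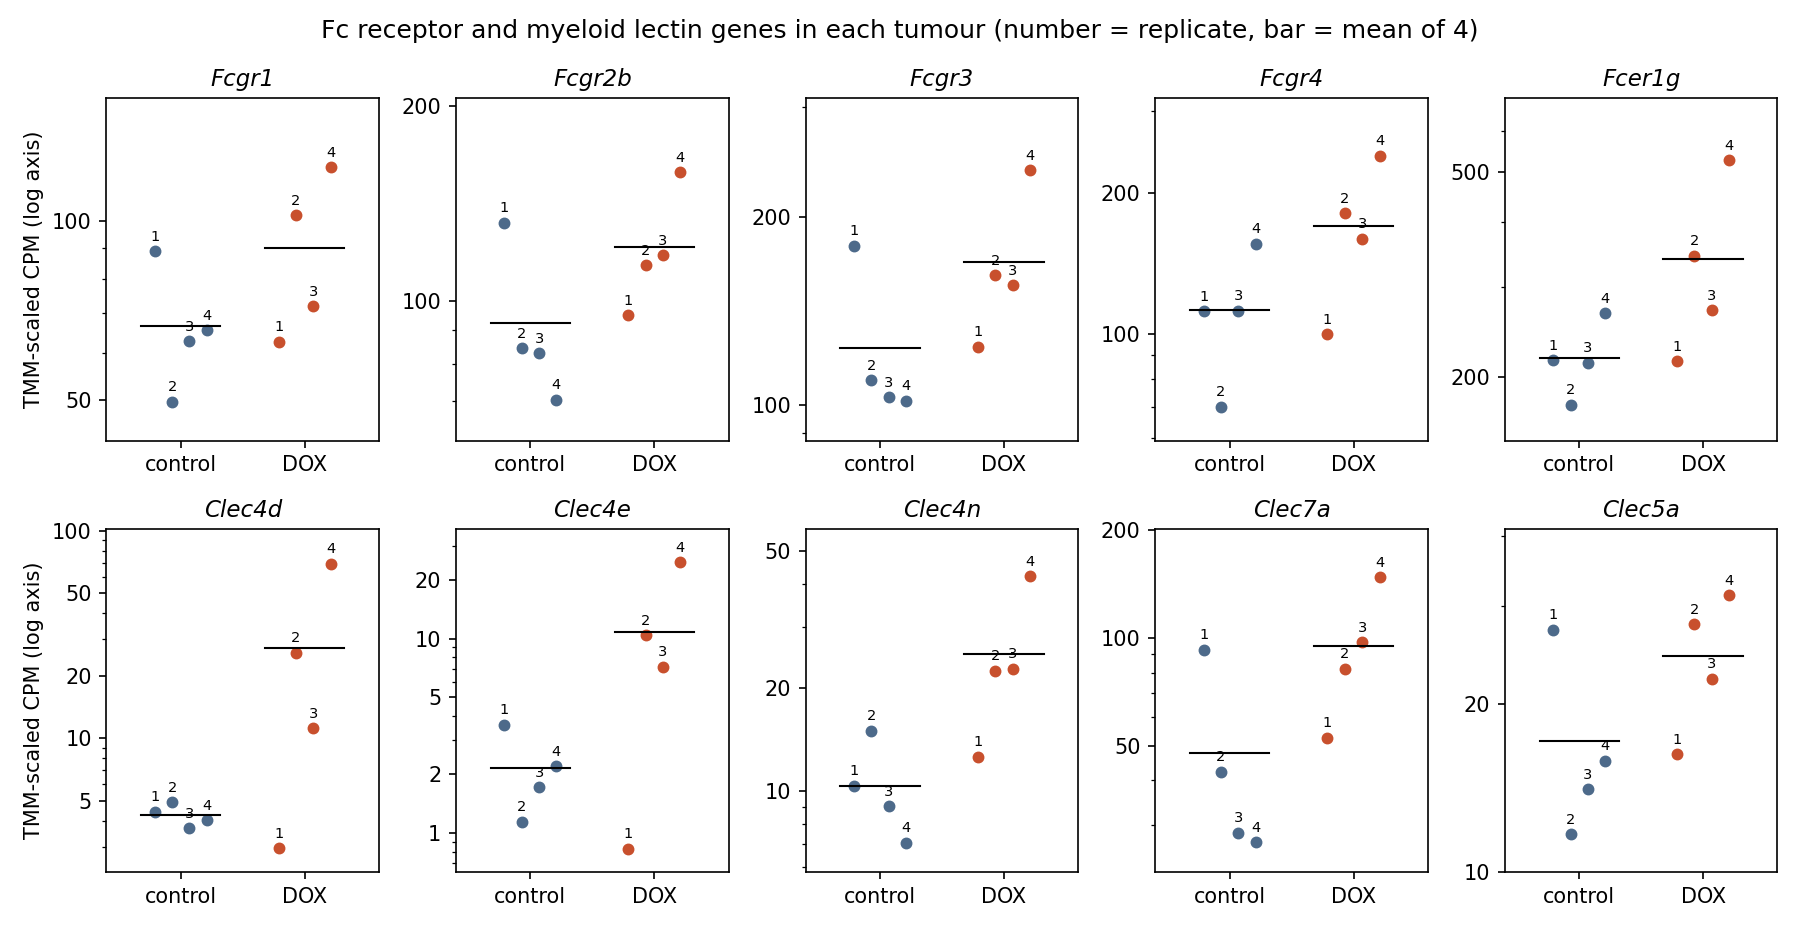
TMM-scaled CPM (log axis, one scale per gene) of the 10 genes in each control and DOX tumour; the digit above a point is the replicate number and the bar is the mean of 4. DOX tumour 4 is the highest and DOX tumour 1 the lowest DOX tumour in each of the 10 panels, and the spread among DOX tumours is widest for Clec4d and Clec4e.

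The Fcer1g chain is the shared adaptor of the activating Fc receptors and of 3 of the lectins. Fcer1g (chr1:171229572-171234349 in GRCm38.p6, minus strand) stood at 216, 177, 214 and 266 CPM in control tumours 1 to 4 and at 215, 344, 269.8 and 527 CPM in DOX tumours 1 to 4. DOX tumours 2, 3 and 4 were above the highest control tumour, and DOX tumour 1 was level with control tumours 1 and 3. The means were 218 ± 36.6 and 339 ± 136 CPM (SD, n = 4 each), a log2 difference of 0.64 ± 0.26 (SE), with an unadjusted p of 0.0394 and an adjusted p of 0.408 in edgeR's quasi-likelihood test. The estimate was 0.80 without DOX tumour 1 and 0.34 without DOX tumour 4.

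Among the activating IgG receptors, Fcgr1 encodes the high-affinity receptor. Fcgr1 (chr3:96282909-96293969, minus strand) stood at 88.9, 49.6, 62.7 and 65.4 CPM in control tumours 1 to 4 and at 62.6, 102, 71.9 and 123 CPM in DOX tumours 1 to 4. DOX tumours 2 and 4 were above every control tumour, DOX tumour 3 was above 3 of them and DOX tumour 1 was not above control tumours 1, 3 or 4. Its log2 fold change was 0.43 ± 0.24 (SE, adjusted p = 0.514 in edgeR's quasi-likelihood test), the control mean being 66.7 ± 16.4 and the DOX mean 90.0 ± 27.9 CPM (SD, 4 tumours each). Without DOX tumour 4 the estimate was 0.25.

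Fcgr4, a receptor that binds IgG2a and IgG2b in mice, lies on chromosome 1 (171018926-171029761, plus strand) among the other low-affinity receptor genes. It stood at 112, 69.9, 112 and 156 CPM in control tumours 1 to 4 and at 100.0, 181, 159.8 and 240.4 CPM in DOX tumours 1 to 4. Control tumour 2 was the lowest and DOX tumour 4 the highest, and DOX tumour 1 lay below control tumours 1, 3 and 4. The means were 112 ± 35.1 and 170.4 ± 58.0 CPM (SD, n = 4 each), the log2 difference 0.60 ± 0.29 (SE) and its adjusted p 0.462 in edgeR's quasi-likelihood test. Leaving out DOX tumour 4 gave 0.39.

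Fcgr3, the activating low-affinity receptor, and Fcgr2b, its inhibitory counterpart, share coding sequence, which matters for how their reads were counted. The longest stretch shared by their coding transcripts in the GENCODE annotation of GRCm38 is 129 bases long and spans 2 exons. In Fcgr2b these lie at chr1:170967980-170968081 and chr1:170966674-170966700, and in Fcgr3 at chr1:171057691-171057792 and chr1:171054167-171054193, all on the minus strand. The sequence is shown because a read that falls within it matches both genes equally:
Fcgr2b and Fcgr3 shared stretch: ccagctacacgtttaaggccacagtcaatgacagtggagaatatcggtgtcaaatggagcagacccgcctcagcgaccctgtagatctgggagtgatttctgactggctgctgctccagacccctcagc
Of the 50-base windows in coding transcripts, 6.72% in Fcgr2b and 10.2% in Fcgr3 occurred in another gene. The share was 0.826% for Clec4n and 0% for Fcgr1, Fcgr4, Fcer1g, Clec4d, Clec4e, Clec7a and Clec5a. The deposited counts of Fcgr2b and Fcgr3 were fractional in all 8 tumours, as they would be where a tool divides shared reads between genes. The levels of these 2 genes are therefore less certain than those of the other members. Those other 8 had whole counts in 8 of 8 tumours, within 0.005.

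With that limit, Fcgr3 (chr1:171051169-171065915, minus strand) stood at 179.8, 109.5, 103 and 102 CPM in control tumours 1 to 4 and at 124, 161, 155 and 238 CPM in DOX tumours 1 to 4. Control tumour 1 was above DOX tumours 1, 2 and 3, and the other control tumours were below all DOX tumours. The log2 fold change was 0.46 ± 0.24 (SE, adjusted p = 0.495 in edgeR's quasi-likelihood test), 0.70 without control tumour 1 and 0.25 without DOX tumour 4. Fcgr2b (chr1:170960558-170976071, minus strand) stood at 132, 84.5, 83.0 and 70.4 CPM in control tumours 1 to 4 and at 95.0, 113, 118 and 158 CPM in DOX tumours 1 to 4. It had the same order: control tumour 1 was exceeded by DOX tumour 4 alone. Its log2 fold change was 0.39 ± 0.22 (SE, adjusted p = 0.511 in edgeR's quasi-likelihood test), 0.61 without control tumour 1 and 0.24 without DOX tumour 4.

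Whether the balance of activating to inhibitory receptors differed was read from FPKM, the deposited values per transcript length, because levels of different genes are compared here. The summed FPKM of Fcgr1, Fcgr3 and Fcgr4 was 2.75, 2.61, 3.26 and 4.55 times that of Fcgr2b in control tumours 1 to 4 and 2.93, 3.81, 3.26 and 3.73 times in DOX tumours 1 to 4. The means were 3.29 ± 0.881 and 3.43 ± 0.413 (SD, n = 4 each), and the DOX values lay within the control range. Control tumour 4 had the highest ratio. It also had the highest share of Fcgr4 among the 4 receptors, 45.6% of their FPKM, while that share was 25.7, 26.0 and 36.3% in control tumours 1 to 3 and 30.6, 38.0, 36.3 and 36.6% in DOX tumours 1 to 4. The share thus varied more among control tumours than among DOX tumours. Fcgr3 stood at 1.31 to 1.58 times the FPKM of Fcgr2b in the 8 tumours, a narrow range between genes with shared sequence.

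**Figure D2:**
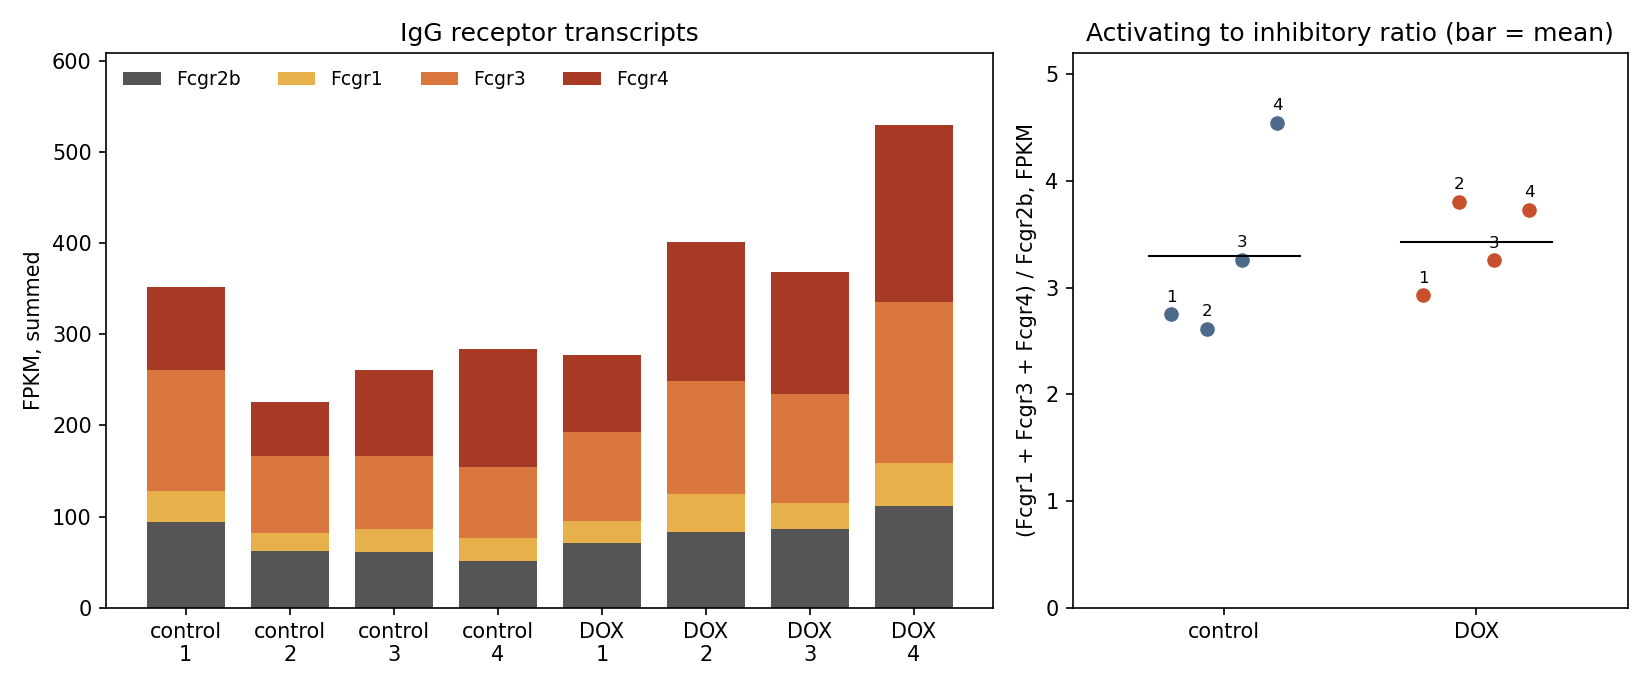
Left, summed FPKM of the 4 IgG receptor genes in each tumour, stacked by gene; right, the ratio of summed activating receptor FPKM (Fcgr1, Fcgr3 and Fcgr4) to Fcgr2b FPKM, with the replicate number above each point and the bar at the mean of 4. The DOX ratios (2.93 to 3.81) lie within the control range (2.61 to 4.55).

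Of the lectins that signal through Fcer1g, Clec4d and Clec4e lie side by side on chromosome 6, next to Clec4n. Clec4d (chr6:123262107-123275268, plus strand) encodes MCL, a partner of Mincle in the binding of mycobacterial glycolipid. Clec4e (chr6:123281789-123289871, minus strand) encodes Mincle, which also binds a protein released by dead cells, SAP130. Their promoters are shown because these genes had the widest spread across the tumours. Each runs from 250 bases before to 50 after the start in RefSeq's annotation of GRCm38.p6, and capitals mark GAGGAA, the core of sites for the myeloid factor PU.1, searched on both strands:
Clec4d (chr6:123261857-123262156, plus strand): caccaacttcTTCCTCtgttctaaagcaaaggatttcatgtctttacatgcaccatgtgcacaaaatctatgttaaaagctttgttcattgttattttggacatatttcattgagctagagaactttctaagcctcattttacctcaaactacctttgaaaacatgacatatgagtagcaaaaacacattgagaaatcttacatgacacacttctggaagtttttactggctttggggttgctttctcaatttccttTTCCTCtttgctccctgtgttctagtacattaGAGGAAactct
Clec4e (chr6:123289822-123290121, minus strand): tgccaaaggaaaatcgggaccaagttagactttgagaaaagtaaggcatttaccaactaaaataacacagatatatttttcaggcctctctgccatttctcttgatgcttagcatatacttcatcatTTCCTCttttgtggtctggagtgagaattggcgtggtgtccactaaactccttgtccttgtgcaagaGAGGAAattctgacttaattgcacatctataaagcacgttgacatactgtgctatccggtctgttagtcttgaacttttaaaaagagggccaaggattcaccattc
GAGGAA was found 3 times in the Clec4d window, 2 times in the Clec4e window and also 2 times in that of Clec5a, which is not shown. Thus 3 of 9 member promoters had 2 or more matches, against 4.84% of all 27025 promoters of that length. At least 1 match was found in 7 of 9 member promoters that had an entry, Clec4n having none. The share was 28.3% of all promoters and 27% of those of tested genes. Only the first listed start of each gene was searched, and Fcgr3 and Clec7a had 2. Other motifs were also searched on both strands. TTGCNNAA for C/EBP factors was in 2 of 9, against 10.8% of all promoters and 8.45% of those of tested genes. An NF-kB-type motif was in 4 of 9 (20.5% and 26.1%) and an interferon response-type motif in 2 of 9 (3.49% and 3.21%). TGANTCA for AP-1 was in 0 of 9 (7.93% and 5.12%). The interferon response-type match of Clec4d overlapped a GAGGAA match. A match describes these letters in this window and is not evidence that a factor binds there.

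Clec4d stood at 4.42, 4.92, 3.68 and 4.02 CPM in control tumours 1 to 4 and at 2.95, 25.8, 11.2 and 69.3 CPM in DOX tumours 1 to 4. Control tumours lay close together, and DOX tumours 2, 3 and 4 were above them all, while DOX tumour 1 had the lowest value of the 8. The means were 4.26 ± 0.535 and 27.3 ± 29.5 CPM (SD, n = 4 each), 6.39-fold apart, with the highest DOX tumour 23.5 times the lowest. The log2 fold change was 2.68 with all tumours, 3.05 without DOX tumour 1 and 1.65 without DOX tumour 4.

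Clec4e, which was tested, stood at 3.60, 1.14, 1.71 and 2.20 CPM in control tumours 1 to 4 and at 0.828, 10.4, 7.15 and 24.7 CPM in DOX tumours 1 to 4. The same 3 DOX tumours were above all controls, and DOX tumour 1 was again the lowest of the 8. The means were 2.16 ± 1.05 and 10.8 ± 10.1 CPM (SD, n = 4 each), and the log2 fold change was 2.31 ± 0.81 (SE). Its unadjusted p was 0.0203 and its adjusted p 0.387 in edgeR's quasi-likelihood test. Without DOX tumour 4 the estimate was 1.51. The ratio of Clec4d to Clec4e FPKM was 2.35, 8.21, 4.10 and 3.51 in control tumours 1 to 4 and 6.88, 4.77, 3.00 and 5.38 in DOX tumours 1 to 4, so the groups overlapped. Cxcl14 was at 30.1, 30.2, 20.3 and 15.8 CPM in DOX tumours 1 to 4. In the same tumours Clec4d stood at 2.95, 25.8, 11.2 and 69.3 CPM, and Clec4e had the same order as Clec4d. A relation of these lectins to the level of Cxcl14 was not tested.

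Clec4n encodes Dectin-2, a receptor for fungal mannans, and lies at chr6:123229843-123247024. It stood at 10.4, 15.0, 9.03 and 7.08 CPM in control tumours 1 to 4 and at 12.6, 22.4, 22.7 and 42.2 CPM in DOX tumours 1 to 4. DOX tumours 2, 3 and 4 were above all controls, and DOX tumour 1 was below control tumour 2. The means were 10.4 ± 3.36 and 25.0 ± 12.4 CPM (SD, n = 4 each), 2.41-fold apart, with a log2 difference of 1.27 ± 0.37 (SE), an unadjusted p of 0.00782 and an adjusted p of 0.387 in edgeR's quasi-likelihood test. DESeq2 gave it an adjusted p of 0.0315, the smallest of the alternatives, whose adjusted p ran up to 0.799; DESeq2 called 0.468% of all genes higher. At an unadjusted p under 0.05, DESeq2 counted 5 of the 9 members higher, against 6.13% of all genes. Of its neighbours, Clec4a2 (chr6:123122690-123143999), an inhibitory lectin gene of the same cluster, had a log2 difference of 0.23 ± 0.19 (SE, adjusted p = 0.672 in edgeR's quasi-likelihood test).

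Clec7a (chr6:129461591-129472785, minus strand) encodes Dectin-1 and lies in another lectin cluster of chromosome 6. It stood at 92.7, 42.3, 28.5 and 26.9 CPM in control tumours 1 to 4 and at 52.7, 82.1, 97.2 and 148 CPM in DOX tumours 1 to 4. Control tumour 1 exceeded DOX tumours 1 and 2, and the other 3 control tumours were below all DOX tumours. The means were 47.6 ± 30.8 and 95.0 ± 39.8 CPM (SD, n = 4 each), a log2 difference of 1.00 ± 0.45 (SE, adjusted p = 0.445 in edgeR's quasi-likelihood test), which was 1.54 without control tumour 1. Clec5a (chr6:40574898-40585805, minus strand) stood at 27.2, 11.7, 14.1 and 15.8 CPM in control tumours 1 to 4 and at 16.2, 27.8, 22.2 and 31.4 CPM in DOX tumours 1 to 4. Again control tumour 1 was high, above DOX tumours 1 and 3. The log2 fold change of Clec5a was 0.51 ± 0.29 (SE, adjusted p = 0.522 in edgeR's quasi-likelihood test), and 0.82 without control tumour 1.

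**Figure D3:**
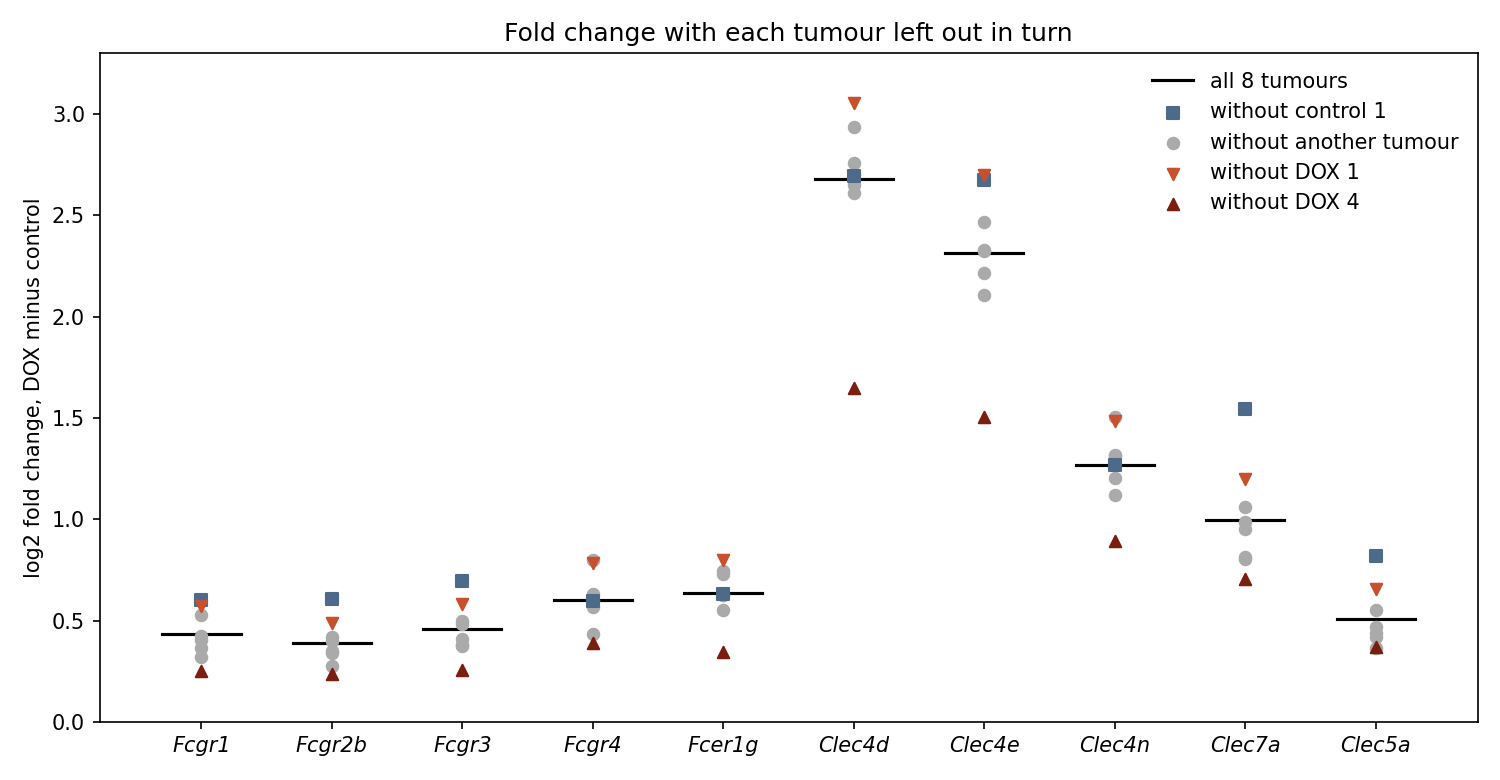
Log2 fold change (DOX minus control) of the 10 genes with all 8 tumours (black line) and with each tumour left out in turn (points; triangles and squares mark DOX tumour 1, DOX tumour 4 and control tumour 1). All points are above 0; leaving out DOX tumour 4 gives the lowest estimate for 9 of 10 genes.

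Per transcript length, Fcer1g had the highest level of the 10 genes in all 8 tumours, with FPKM from 294 to 839 and no overlap with the next gene. By mean FPKM over the 8 tumours, Fcgr4 (117), Fcgr3 (112) and Fcgr2b (77.7) followed, then Clec7a (33.7), Fcgr1 (30.7), Clec4n (14.9), Clec4d (12.1), Clec5a (5.54) and Clec4e (2.59). Each of these neighbours in the order overlapped in range with the next. Fcgr4 was above Fcgr3 in 5 of 8 tumours, and Clec4n was above Clec4d in 6 of 8. The order of Clec4d rests on DOX tumours 2 to 4, since it was listed at 2.91 to 3.86 FPKM in control tumours.

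The members were set against the macrophage markers of the same tumours. The score of 10 macrophage markers, their mean log2 CPM, was 6.72, 7.06, 6.90 and 7.02 in control tumours 1 to 4 and 7.20, 7.44, 7.38 and 7.75 in DOX tumours 1 to 4, so all DOX tumours were above all controls. Taken relative to that score, the DOX minus control difference was -0.11 for Fcgr1, -0.11 for Fcgr2b, -0.06 for Fcgr3, 0.07 for Fcgr4, 0.05 for Fcer1g and 0.02 for Clec5a on the log2 scale. These 6 differences lay between -0.11 and 0.07. Those of Fcgr1, Fcgr2b, Fcgr3 and Clec5a rest in part on control tumour 1, which had the lowest score. Relative to the score, Fcgr3 was at 0.77 in control tumour 1 and at -0.28, -0.22 and -0.35 in control tumours 2 to 4. In DOX tumours 1 to 4 it was at -0.25, -0.11, -0.10 and 0.14. Clec5a was at -1.95 in control tumour 1 and at -3.50, -3.08 and -3.03 in control tumours 2 to 4. Its values in DOX tumours 1 to 4 were -3.17, -2.64, -2.90 and -2.78. Differences without control tumour 1 were not computed. The other lectins stayed higher relative to the score, by 1.34 for Clec4d, 1.11 for Clec4e, 0.66 for Clec4n and 0.57 for Clec7a. Here too control tumour 1 stood apart for Clec7a, at -0.18 against -1.65, -2.06 and -2.27 in control tumours 2 to 4. The groups overlapped for all 10 relative values, and no test was made. The part that macrophage content has in the members' values was not tested.

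**Figure D4:**
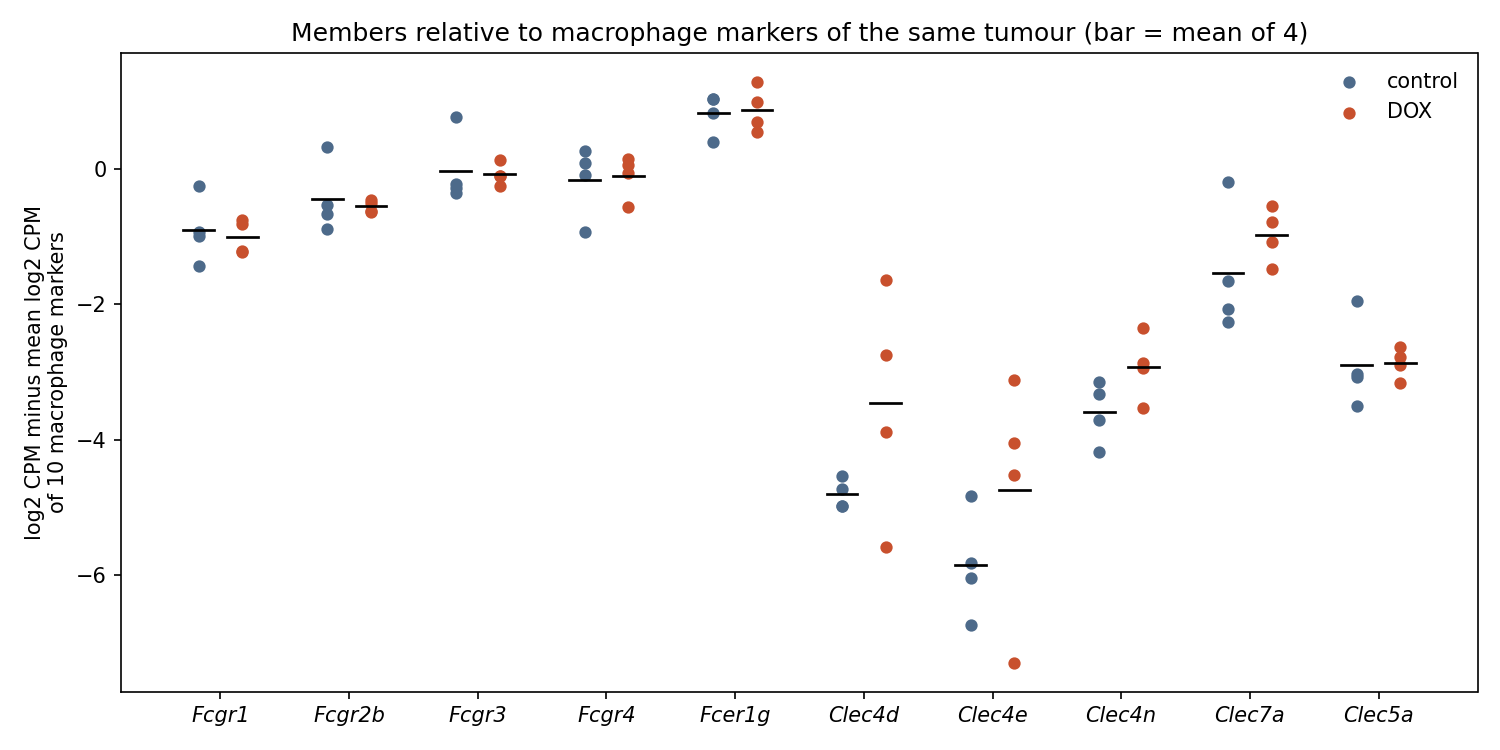
Log2 CPM of each gene minus the mean log2 CPM of 10 macrophage markers in the same tumour, for control and DOX tumours (points; bar, mean of 4). The 5 Fc receptor genes and Clec5a lie at similar heights in both groups, while Clec4d, Clec4e, Clec4n and Clec7a have higher DOX means with wide spread.

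Markers of other cell types were read in the same way. Of all 13436 genes, 46.8% were higher and 7.65% were higher with an unadjusted p under 0.05. Of 10 macrophage markers, 9 were higher and 8 had an unadjusted p under 0.05, and their summed FPKM was 2077 to 4244 in control and 4311 to 7483 in DOX tumours. Much of that sum was Apoe, named here after its values were seen, with means of 1870 ± 841 and 2980 ± 702 FPKM (SD, n = 4 each). The CPM of Apoe overlapped between the groups (adjusted p = 0.498 in edgeR's quasi-likelihood test). C1qa, a complement gene of macrophages, had a log2 difference of 0.65 ± 0.16 (SE), and Csf1r, through which macrophages receive their main growth signal, 0.47 ± 0.12. T cell markers were higher in 7 of 7 tested, all with an unadjusted p under 0.05 and a median of 1.48 (Cd3d 1.78 ± 0.48, Cd8b1 1.44 ± 0.35, SE). Skeletal muscle markers were higher in 9 of 9 tested, 7 of them with an unadjusted p under 0.05, and their summed FPKM was 3.68 to 40.4 in control and 15.2 to 145 in DOX tumours (Ckm 4.19 ± 1.20, SE). Without DOX tumour 4, 4 muscle markers were higher with an unadjusted p under 0.05 (4.28% of all genes). None of these passed the adjusted threshold in edgeR's quasi-likelihood test, while DESeq2 called 4 of the macrophage and 2 of the T cell markers. The part of T cell and muscle content in the members' values was not tested.

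Monocyte markers (8 tested, 5 higher, 0 with an unadjusted p under 0.05, median 0.16) and endothelial markers (8 tested, 0, median 0.07) gave no call at that level, at which 7.65% of all genes were higher. Without control tumour 1, however, 3 monocyte markers were higher with an unadjusted p under 0.05 (7.55% of all genes) and the median was 0.51. Without DOX tumour 1, 1 was higher at that level (10.2%). Of 10 neutrophil markers, 4 were tested and 1 had an unadjusted p under 0.05, namely Csf3r with a log2 difference of 0.73 ± 0.25 (SE), and 2 had one without control tumour 1. The defining neutrophil genes were near 0: Ly6g was at 0 counts in 6 of 8 tumours, and S100a8 and S100a9 reached at most 0.908 and 0.437 CPM. Summed FPKM of the neutrophil list was 47.0 to 78.3 in control and 75.8 to 85.9 in DOX tumours, mostly from Mmp9, a metalloproteinase gene named here after its values were seen, which had a log2 difference of 0.15 ± 0.20 (SE). Of the mast cell and basophil markers, 6 of 9 were tested, none with an unadjusted p under 0.05, and the IgE receptor genes Fcer1a and Ms4a2 reached at most 0.778 and 0.519 CPM. Among natural killer markers, 2 of 7 had an unadjusted p under 0.05 (Klre1 1.00 ± 0.29 and Prf1 0.97 ± 0.32, SE), among dendritic cell markers 2 of 9 (Itgax 0.78 ± 0.24 and Ccr7 1.21 ± 0.45, SE), and of 8 B cell markers 2 were tested. The dendritic cell count was 4 without DOX tumour 1 (10.2% of all genes) and 1 without control tumour 2 (6.71%). The natural killer count was 3 without control tumour 1 (7.55%).

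Genes downstream of the receptors were read from lists. In the list of ITAM adaptors and proximal kinases, 14 of 14 tested genes were higher, 11 with an unadjusted p under 0.05 (7.65% of all genes) and 0 after adjustment, with a median log2 fold change of 0.47. Tyrobp, encoding DAP12, stood at 76.5, 70.5, 78.4 and 77.8 CPM in control tumours 1 to 4 and at 84.2, 133, 99.2 and 209 CPM in DOX tumours 1 to 4, with all DOX tumours above all controls. Its log2 fold change was 0.79 ± 0.25 (SE, adjusted p = 0.387 in edgeR's quasi-likelihood test). Hcst, the adaptor DAP10, which is on the list though it has no ITAM, gave 1.35 ± 0.39 (SE). Pik3cd, a lipid kinase subunit of leukocytes, gave 0.42 ± 0.14 (SE), and neither gene overlapped between the groups. Syk, which binds the motifs of Fcer1g and is named here after its values were seen, stood at 31.3 ± 2.34 and 52.0 ± 20.9 CPM (SD, n = 4 each) and also did not overlap. Such a separation of all DOX from all control tumours held for 4 of the 14 genes, against 3.23% of all genes. Without control tumour 2, the count with an unadjusted p under 0.05 was 7 of the 14 (6.71% of all genes), and without DOX tumour 4 the median was 0.30.

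Fcer1g and Tyrobp encode the adaptors that these receptors share, and Fcer1g FPKM was 2.44, 2.17, 2.35 and 2.96 times that of Tyrobp in control tumours 1 to 4 and 2.20, 2.23, 2.35 and 2.18 times in DOX tumours 1 to 4. The ranges overlapped, and the DOX tumours lay closer together. The CARD9 module, which links the lectins to NF-kB, had 9 tested genes, 4 higher and 5 lower. With an unadjusted p under 0.05, 1 was higher (7.65% of all genes). That gene was Card9 itself, at 7.14 ± 0.395 and 9.87 ± 3.03 CPM (SD, n = 4 each), log2 fold change 0.47 ± 0.21 (SE, adjusted p = 0.426 in edgeR's quasi-likelihood test). The median over the 9 genes was -0.05, and it was 0.05 without control tumour 1 and 0.01 without DOX tumour 4; Rel had 0.19 ± 0.09 and Tab2 -0.13 ± 0.08 (SE). No gene of the module had an unadjusted p under 0.05 without control tumour 1, 2, 3 or 4, or without DOX tumour 2 or 4. In those fits, 4.28% to 7.55% of all genes were higher at that level. Without DOX tumour 1, 2 genes of the module were higher at that level (10.2%).

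Among inhibitory receptors and the phosphatases they recruit, 12 of 13 were tested, 11 higher and 1 lower. With an unadjusted p under 0.05, 5 were higher (7.65% of all genes). Inpp5d, encoding SHIP-1, the phosphatase that acts behind the Fcgr2b receptor, stood at 62.2 ± 5.54 and 87.2 ± 16.6 CPM (SD, n = 4 each) without overlap, a log2 difference of 0.49 ± 0.13 (SE, adjusted p = 0.387 in edgeR's quasi-likelihood test). Ptpn6, encoding SHP-1, had 0.62 ± 0.20 and Cd300a, an inhibitory receptor whose counts were fractional in all 8 tumours, 1.23 ± 0.38 (SE). Without control tumour 4, 8 of the inhibitory genes had an unadjusted p under 0.05 (6.58% of all genes). Other Fc receptors numbered 12, of which 5 were tested, 3 higher and 2 lower. Fcgrt, the neonatal receptor that recycles IgG, had 0.30 ± 0.11 (SE) with all DOX tumours above all controls. Fcer2a, the low-affinity IgE receptor of B cells, had -0.64 ± 0.26 (SE) with all DOX tumours below, again with fractional counts throughout. It was near the floor, at 0.621 to 1.47 CPM in the 8 tumours. The median of that list was 0.08. Over all genes, 3.23% had every DOX tumour above every control tumour, as Inpp5d and Fcgrt did, and 2.43% the reverse.

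Of other C-type lectins, 16 of 21 were tested, 12 higher and 4 lower. With an unadjusted p under 0.05, 6 were higher (7.65% of all genes). Cd302 was the one with all DOX tumours above all controls among the 3 named (3.23% of all genes), with 0.59 ± 0.16 (SE). Clec4a1, a myeloid lectin gene, and Thbd, thrombomodulin, had 0.71 ± 0.28 and 0.56 ± 0.23 (SE). Of these lectins, 1 had an unadjusted p under 0.05 without control tumour 1 (7.55% of all genes). Without control tumour 2 or 3, or without DOX tumour 2, 3 or 4, 3 had one (4.28% to 6.71%). Receptors that use DAP12 as Clec5a does had 8 of 9 tested, 7 higher and 3 with an unadjusted p under 0.05, namely Trem2 (0.50 ± 0.18), Cd300lb (0.71 ± 0.26) and Cd300c2 (0.60 ± 0.21, SE). That number was 1 without control tumour 1 (7.55% of all genes) and 5 without DOX tumour 1 (10.2%). Of 13 genes on the list of antibody chains, 12 are heavy and light chain genes, which were not in the count table and not analysed here. The ligands of the IgG receptors were therefore not measured. Jchain, the joining chain gene, was tested and had a log2 difference of 0.86 ± 0.50 (SE, adjusted p = 0.536 in edgeR's quasi-likelihood test).

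**Figure D5:**
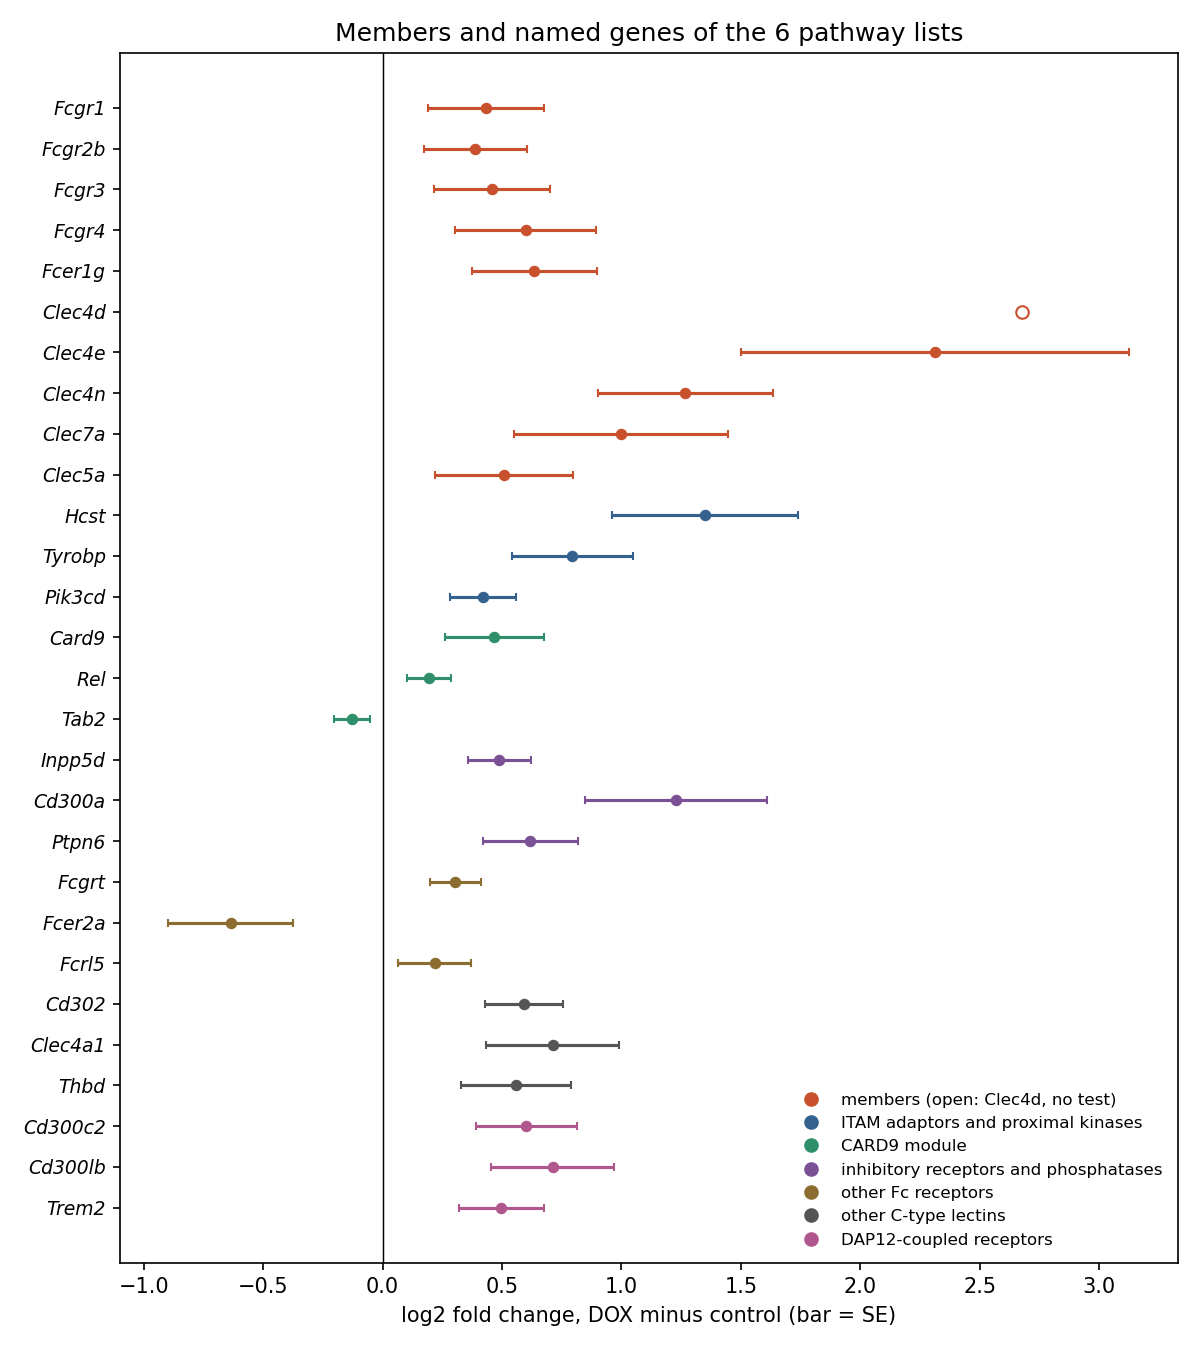
Log2 fold change (DOX minus control, point) with its SE (bar) for the 10 members and for the named genes of 6 pathway lists, coloured by list; Clec4d is an open point without SE, as it was not tested. The 10 members lie above 0, and of the named list genes Fcer2a, a gene at 0.621 to 1.47 CPM, lies lowest, at -0.64.

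Outputs that these receptors can induce and the machinery of the phagocyte oxidase were read last, beside the 7.65% of all genes higher with an unadjusted p under 0.05. Of 12 tested cytokine and inflammatory genes, 9 were higher and 5 had an unadjusted p under 0.05, with a median of 1.10. The macrophage cytokine Tnf had 1.09 ± 0.27 and the chemokine Ccl3 1.31 ± 0.43 (SE). Il12b, the shared subunit of IL-12 and IL-23, had 1.68 ± 0.44 (SE) with all DOX tumours above all controls (3.23% of all genes). Without DOX tumour 4, 3 of these 12 had an unadjusted p under 0.05 (4.28% of all genes), and the median was 0.50. Among 12 genes of the oxidase and of uptake, 12 were higher and 8 had an unadjusted p under 0.05, with a median of 0.67. Cybb, the catalytic subunit of the oxidase, had 0.91 ± 0.29, Ncf4, a cytosolic subunit, 0.64 ± 0.20, and Itgb2, the leukocyte integrin beta chain, 0.82 ± 0.26 (SE). Without control tumour 2, 5 of these genes had an unadjusted p under 0.05 (6.71% of all genes), and without DOX tumour 4 the median was 0.38. None of these genes passed the adjusted threshold in edgeR's quasi-likelihood test, while DESeq2 called Tnf and Il12b.

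The profiles most like each member were the 3 tested genes with the smallest root mean square difference in centred log2 CPM over the 8 tumours. For Fcer1g they were Pirb, an inhibitory receptor gene (0.0567), Nuak2 (0.0601) and Cd52 (0.0619). For Fcgr3 they were H2-T23 (0.0701), Grina (0.0866) and Dram1 (0.0960), and for Fcgr2b Il4ra (0.0801), Grina (0.0807) and H2-Q9 (0.0959). Fcgr1 lay nearest to Samhd1 (0.0735), Dpep2 (0.0819) and Trafd1 (0.0890), and Fcgr4 to Map3k9 (0.130), Fgl2 (0.142) and Sirpb1a (0.146). Clec4d and Clec4e were the members furthest from their nearest profiles. Clec4d lay nearest to Inpp5j (0.536), Mgst1 (0.601) and the formyl peptide receptor gene Fpr2 (0.613), Clec4e to Bst1 (0.619), Mcemp1 (0.630) and Ly6i (0.650), and Clec4n to Dpp4 (0.252), S1pr4 (0.263) and the lysozyme gene Lyz2 (0.264). Clec7a lay nearest to Mmp19 (0.179), Ccr7 (0.204) and Ubd (0.223), and Clec5a to Gm4070 (0.112), Ccl12 (0.120) and Lrrc4 (0.121). Within the members, the closest pair was Fcgr2b and Fcgr3 (0.0874), whose transcripts share sequence, and Clec4d and Clec4e were each other's nearest member (0.537).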

How the data were processed

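Bulk RNA from 8 tumours of different mice, 4 control and 4 DOX, was measured, and groups were taken from the labels. The authors deposited expected counts per gene (64.9% of values were whole within 0.005) and values named FPKM per the file headers, a unit scaled to transcript length and library size. HISAT, Bowtie2 and the build GRCm38.p6 are listed, per the submitters' processing notes. Neither the counting tool nor the use of strand is stated, being not given in the sources used here. A deposited table of TPM has 8 columns that match no sample label and were not used.

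Expected counts were rounded to whole numbers. edgeR 4.0.16 in R 4.3.3 (filterByExpr, TMM, robust quasi-likelihood F test, Benjamini-Hochberg adjustment over 13436 genes, threshold 0.05) gave the main comparison, without a replicate block. The SE is the log2 fold change divided by the square root of F. The common biological coefficient of variation was 14.7%. CPM values are TMM-scaled. Alternatives were DESeq2 1.42.0, other scalings and filters, and limma 3.58.1 on log2(FPKM + 1) and log2(FPKM + 0.1). The steps were tested on simulated data.

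The members and the 20 gene lists were chosen with earlier results of these data known. Besides the members, the text names up to 3 tested genes with the smallest p from each pathway list, up to 2 from each cell type list, and the 3 nearest profiles per member; other genes are marked, apart from marker genes given for their low level and the neighbour Clec4a2. List scores are mean log2 CPM with a prior count of 2. Promoters are RefSeq's, of GRCm38.p6, with 9 of 10 members matched.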

Additional observations from a re-analysis of the deposited data

Results flagged for a closer look

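Of 170 sets of 4 tumours (85 genes in 2 groups), 8 had a value that stood apart from the other 3 by a gap above Dixon's 95% critical value. Chance flags about 1 in 20 such groups, a rate close to the 8 of 170 found, and all 8 values were in control tumours. Among the members, Fcgr3 in control tumour 1 was at 180 CPM, against 101.5 to 109.5 CPM in the other control tumours. H2-T23 was screened because its profile was the nearest to that of Fcgr3, so its flag is not independent of that of Fcgr3. It was at 160.3 CPM in control tumour 1, against 88.4 to 91.8 CPM in the other control tumours. Control tumour 1 also had 40.0 CPM of the monocyte and macrophage gene Chil3 (others 1.07 to 1.40 CPM), 19.8 CPM of Cdh1 (others 4.77 to 5.15 CPM), 1.26 CPM of Thbd (others 1.56 to 1.61 CPM) and 1.20 CPM of Cd79b (others 2.18 to 2.44 CPM). Ncf4 stood at 15.1 CPM in control tumour 2 (others 18.5 to 19.3 CPM), and Cdh5 at 12.9 CPM in control tumour 4 (others 22.5 to 25.1 CPM).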

How the results depend on the processing

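All 10 members kept a log2 fold change above 0 under each of the 17 alternatives, from a lowest value of 0.24 (Fcgr2b, without DOX tumour 4) to a highest of 3.05 (Clec4d, without DOX tumour 1). DESeq2 gave 62 genes higher, 20 lower and 5 of the 9 tested members with an unadjusted p under 0.05, and after adjustment it called Clec4n, Cxcl14, Inpp5j, Tnf, Il12b, C1qa, Csf1r, Cd8b1 and Cd3d among the named genes that edgeR did not call; the cause was not tested. With each tumour left out in turn, genes past the adjusted threshold numbered 1 to 2 higher and 0 lower. Members with an unadjusted p under 0.05 then numbered 1 to 8 of 9, against 4.28% to 10.2% of all genes. The replicate numbers do not pair the tumours: same-numbered tumours correlated at -0.0243 to 0.0860 and 1 of 8 correlated best with its own number. A fit with the replicate number as a block gave 1 gene higher, 0 lower and 2 of 9 members at an unadjusted p under 0.05, against 6.94% of all genes. Signs reversed for Chil3 (-1.26 in the main comparison, 0.72 with the block, 0.10 and 0.42 in limma on log2(FPKM + 1), with or without the low-value filter, and log2(FPKM + 0.1), -1.64 to 1.85 with 1 tumour left out), Cdh1 (-0.25, then 0.04553 with the block, 0.0298 in limma on log2(FPKM + 0.1), -0.45 to 0.55) and Lgals4 (0.04, then -0.0676 to 0.23, being -0.02512 without DOX tumour 1), none of them called. With 4 tumours a group, low genes such as Clec4e (0.828 CPM in DOX tumour 1) carry the widest relative counting error.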
